A study of Botryllus schlosseri with 42 samples.

Results

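Tetraspanin-8 (contig Bot_c16543) and P-selectin (contig Bot_c13044) were followed through the blastogenic cycle of fertile and infertile colonies of Botryllus schlosseri, a colonial ascidian. These cell-surface genes were taken by contig name, and they are 2 of the 50106 contigs of expressed sequence tags listed at every stage. The study had picked both from its most strongly differing genes on these same samples. Their differences between the groups are therefore not independent evidence. In the homolog annotation the tetraspanin-8 contig is matched to a tetraspanin-8-like protein of the ascidian Ciona and to CD63, another tetraspanin, in human, and the P-selectin contig to human, mouse and zebrafish P-selectin. Tetraspanins are small proteins that cross the membrane several times and gather integrins, metalloproteinases and other partners into membrane domains. In mammals, relatives such as CD9 and CD81 act in the fusion of sperm and egg. P-selectin is a calcium-dependent lectin that binds sugars on the surface of other cells, and in vertebrates it slows white blood cells on activated vessel walls. In Botryllus a new generation of zooids is budded in each weekly cycle, and the gonads of fertile colonies develop within the buds and zooids as the cycle proceeds through the stages A1 and A2, B1 and B2, C1 and C2, and D.

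RNA of whole, laboratory-raised colonies was sequenced as paired-end libraries, with 3 fertile and 3 infertile libraries at each of 7 stages and 42 in all. The fertile colonies, labelled hermaphrodite, were the genotypes SB801 and SB841 and a mix of SB802a, SB804 and SB722. The infertile colonies were the genotypes SB802d and SB-BB-001 and a mix of SB831, SB645, SB714, SB841 and SB842, so that SB841 was used on both sides. The same genotypes recur at every stage, and 1 library in 3 of each group is a pool. The infertile SB841 occurs only inside a pool, and genotype and fertility cannot be told apart. In whole colonies, fewer cells that express a gene and less of its RNA per cell cannot be told apart.

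The deposited values are group means of normalized counts, that is reads per contig divided by a size factor for library depth, and are not divided by contig length. Since read pairs come in whole numbers, the deposited mean of a contig fixed its count in each of the 3 libraries, and 99.7% to 99.9% of contigs in a group and stage had a single solution. Recovered libraries carry no genotype, and they are numbered 1 to 3 by falling size factor within a group and stage, with no link between stages. The fertile libraries held between 4309044 and 13955491 recovered read pairs and the infertile libraries between 6651247 and 15670143, on the contigs with library values. For tetraspanin-8 these included 914 read pairs in the 21 fertile libraries and 76 in the 21 infertile libraries. P-selectin had 2591 read pairs in the fertile libraries and 117 in the infertile libraries. Where a library had 0 pairs, a count of 0 still allows up to 3 pairs, which is between 4.18 and 6.49 normalized counts in the 8 cases.

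A set of 5 libraries stood apart in gonad genes, here 6 contigs annotated as sperm genes (including the testis-specific kinase tsk-1) and 3 egg or follicle contigs (ldlr, zp-1 and tll-1), which the study picked on these samples. Fertile library 3 at A2 had a sum of 889 normalized counts over the sperm contigs, against 5692 and 9398 in the other fertile libraries of that stage, and 111 over the egg contigs, against 685 and 802. Fertile library 3 at C1 was the shallowest of all, and its sperm sum was 5070, against 1222 and 1601 in the other fertile libraries of C1. Infertile library 1 had sperm sums of 1001 at B2, 2249 at C1 and 3159 at C2, against 75.3 to 198 in the other infertile libraries of these stages. All 6 sperm contigs were above 0 in those 3 libraries, while their egg sums were 31.1 to 43.1, against 2.79 to 15.1 in the other infertile libraries of these stages and 202 to 2073 in the fertile ones. Among infertile libraries, tll-1 was highest in library 1 at B2, C1 and C2, at 23.3, 28.3 and 12.1. The ldlr values of library 1 were 4.99, 8.08 and 10.4, below the 9.45, 8.36 and 11.1 of infertile library 2. Vitellogenin-1, not part of the egg sum, had 68.2, 136 and 678, against 132, 50.2 and 239 in infertile library 2. Infertile library 3 was lower than library 1 in both contigs. For both genes, stage differences, F tests of the difference and of the fertile level, and the ratio are given with and without such libraries. Jointly scaled levels, correlations, the best correlated contigs and the list contigs are given over all libraries only.

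All fertile libraries lay above all infertile libraries for tetraspanin-8 from A1 to B2 and at D, with means of 151 ± 30.2 normalized counts in fertile colonies and 1.20 ± 1.04 in infertile colonies at A1 (SD, n = 3 each). P-selectin separated the groups at the same 5 stages and at C2, and at D it had 183 ± 14.3 in fertile colonies and 3.92 ± 1.55 in infertile colonies (SD, n = 3 each). Such a gap, with all fertile libraries above all infertile ones, was found in 7.75% of the contigs tested at A1, and in 6.93%, 8.04%, 4.89%, 4.39%, 7.21% and 10.9% at the later stages in their order. P-selectin passed the test at A1, B1 and D, and tetraspanin-8 at A1 and B1. The ratios of the means lay between 10.5 and 191 from A1 to B2 and between 1.59 and 8.37 at C1 and C2 over both genes. Single libraries moved these across each other: without fertile library 1 tetraspanin-8 had a ratio of 5.99 at B2, and without infertile library 1 the C1 ratios were 21.7 for tetraspanin-8 and 44.5 for P-selectin, and the C2 ratio of P-selectin was 11.6. A test of change in the difference over the cycle did not pass for either gene (limma adjusted p = 1.00 for both).

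**Figure D1:**
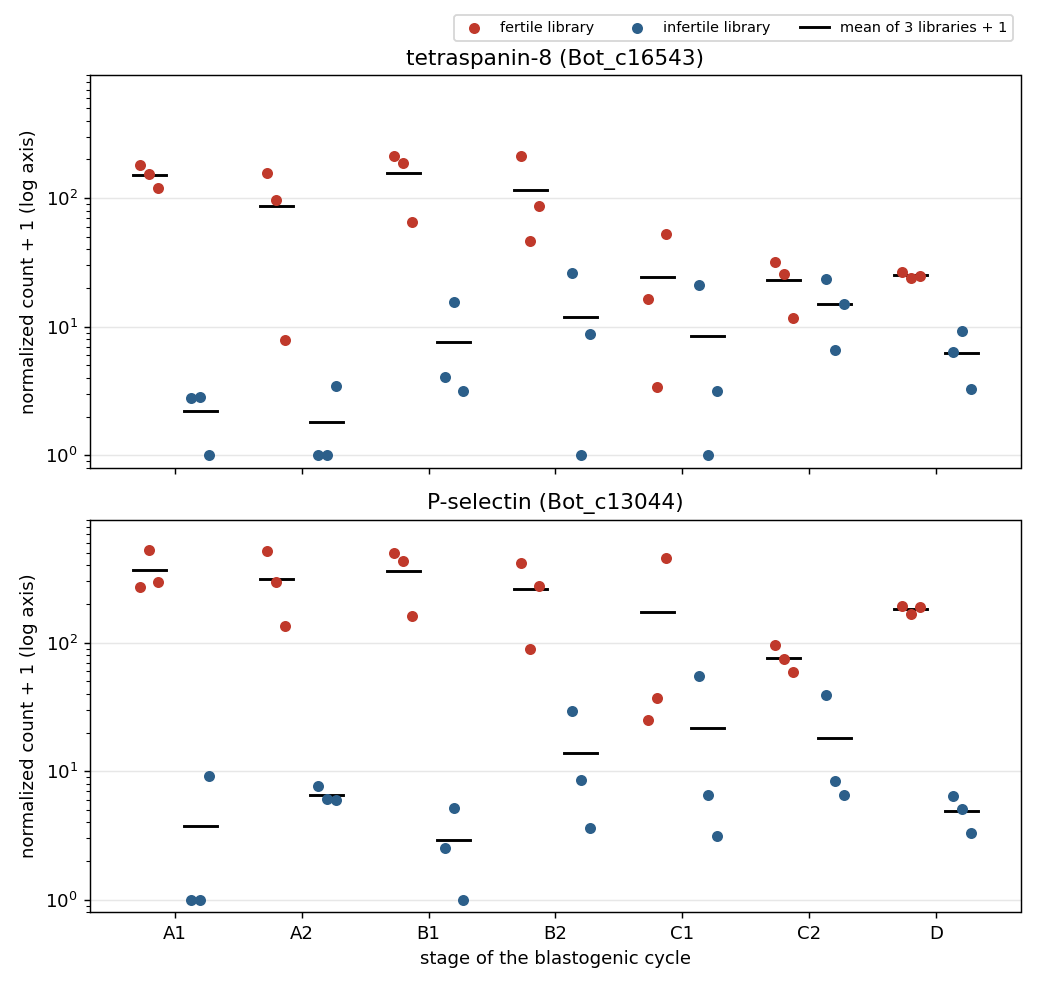
Normalized count plus 1 (log axis) of tetraspanin-8 and P-selectin in each fertile and infertile library at the 7 stages, with the mean of 3 libraries as a bar. The groups do not overlap from A1 to B2 and at D for both genes, and at C1 they overlap for both.

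Tetraspanin-8 at A1 had 180, 153 and 119 normalized counts in fertile libraries 1 to 3, against 1.77, 1.83 and 0 in infertile libraries 1 to 3. The lowest fertile library was far above every infertile library, and the infertile libraries held 2 read pairs in all. The ratio of the means was 126, and the ratio of the pooled read pairs was 124, with a 95% counting interval of 33.9 to 1027. At A2 the fertile libraries had 155, 95.3 and 6.93 normalized counts, against 0, 0 and 2.49 in the infertile libraries. The groups did not overlap, but fertile library 3, the one low in gonad contigs, rested on 3 read pairs and the infertile group on 1. At A2 the ratio of pooled read pairs was 149, with a counting interval of 26.3 to 5932, and the ratio of the means was 104, or 61.7 without fertile library 1.

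At B1 tetraspanin-8 had 213, 188 and 64.7 normalized counts in the fertile libraries, against 3.08, 14.5 and 2.16 in the infertile libraries. At B2 it had 213, 45.1 and 85.5 in the fertile libraries, against 25.0, 0 and 7.76 in the infertile libraries. The infertile value of 25.0 belongs to library 1, which was also high in sperm contigs. The ratios of the means were 23.6 at B1 and 10.5 at B2, and without infertile library 2 at B1 and library 1 at B2 they were 59.1 and 29.6. Without fertile library 1 the B2 ratio was 5.99.

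In the second part of the cycle tetraspanin-8 was low in both groups. At C1 it had 15.5, 2.42 and 52.0 normalized counts in the fertile libraries, against 20.2, 0 and 2.15 in the infertile libraries. The groups overlapped, and each group's highest value came from a library that stood apart. The ratio of the C1 means was 3.13, but 1.20 without fertile library 3 and 21.7 without infertile library 1. At C2 it had 31.0, 24.9 and 10.7 in the fertile libraries, against 22.5, 5.55 and 13.97 in the infertile libraries, which overlapped at a ratio of 1.59. At D the fertile libraries were close together at 25.5, 22.7 and 23.9 normalized counts, against 5.36, 8.22 and 2.29 in the infertile libraries. The D groups lay apart again, at a ratio of 4.54 and a lower level than at A1 (24.0 ± 1.41 in fertile and 5.29 ± 2.96 in infertile colonies; SD, n = 3 each).

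P-selectin at A1 had 269, 523 and 298 normalized counts in fertile libraries 1 to 3, against 0, 0 and 8.22 in infertile libraries 1 to 3. All 4 infertile read pairs fell in 1 library. The means differed 133-fold, or 88.3-fold without either infertile library at 0, and without library 3 the infertile group was at 0. At A2 the fertile libraries had 513, 296 and 134, against 6.64, 5.08 and 4.97 in the infertile libraries. Fertile library 3 at A2 was the lowest of its group for P-selectin as for tetraspanin-8, yet it stayed far above the infertile range. The A2 ratio of the means was 56.5.

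At B1 P-selectin had 495, 432 and 159 normalized counts in the fertile libraries, against 1.54, 4.14 and 0 in the infertile libraries. Only 3 infertile read pairs were counted, and the ratio of the pooled pairs was 207, with a counting interval of 70.5 to 1007. The ratio of the B1 means was 191, or 469 without infertile library 2. At B2 it had 415, 88.1 and 273 in the fertile libraries, against 28.3, 7.56 and 2.59 in the infertile libraries. The highest infertile value was again that of library 1, and the ratio of the B2 means was 20.2 with it and 51.0 without it.

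At C1 P-selectin had 24.0, 36.3 and 455 normalized counts in the fertile libraries, against 53.8, 5.57 and 2.15 in the infertile libraries. A single library carried the mean of each group, and the ratio was 8.37 over all libraries, 1.47 without fertile library 3 and 44.5 without infertile library 1. At C2 it had 94.8, 73.0 and 57.7 in the fertile libraries, against 38.0, 7.40 and 5.59 in the infertile libraries. The C2 groups lay apart at a ratio of 4.42, which was 11.6 without infertile library 1. At D it had 193, 167 and 189 in the fertile libraries, against 5.36, 4.11 and 2.29 in the infertile libraries. The D groups of P-selectin lay 46.6-fold apart in their means, where those of tetraspanin-8 lay 4.54-fold apart.

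The groups were compared with limma, a linear model fitted to all contigs whose mean reached 10 normalized counts, separately at each stage and on log2(normalized count + 1). Differences below are on that scale, fertile minus infertile, and the threshold was a false discovery rate of 10% over all contigs tested at the stage. At A1, 1.27% of the 38654 contigs tested were called higher in fertile colonies and 0.00776% lower, and both genes were among the higher ones. Tetraspanin-8 differed by 6.24 ± 0.52 (SE, limma adjusted p = 0.00542). P-selectin differed by 7.38 ± 0.94 (SE, limma adjusted p = 0.0251), the 44th largest difference of that stage. At B1, 1.29% of 39109 contigs were called higher in fertile colonies and 0.00256% lower, again with both genes among the higher ones. P-selectin differed by 7.11 ± 0.74 at B1 (SE, limma adjusted p = 0.0115). Tetraspanin-8 differed by 4.56 ± 0.77 at B1 (SE, limma adjusted p = 0.0752).

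At D, 0.0422% of 37877 contigs were called higher in fertile colonies, which is 16 contigs, and P-selectin was 1 of them. Its difference of 5.27 ± 0.33 (SE, limma adjusted p = 0.0286) ranked 4th by p-value and 34th by size at that stage. Tetraspanin-8 differed by 2.11 ± 0.43 at D (SE, limma adjusted p = 0.374) and was not called.

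Calls with 3 libraries a group were not all firm. The A1 call of tetraspanin-8 held without each of the 6 libraries in turn (adjusted p up to 0.0475), and that of P-selectin at B1 did too (up to 0.0829). The A1 call of P-selectin was lost without fertile library 1, fertile library 2, infertile library 1 or infertile library 2, with limma adjusted p-values of 0.127, 0.135, 0.106 and 0.107. The B1 call of tetraspanin-8 was lost without fertile library 1 or 2 and without infertile library 1 or 3 (limma adjusted p = 0.374, 0.325, 0.215 and 0.127). The D call of P-selectin was lost without fertile library 1, 2 or 3 (limma adjusted p = 0.181, 0.119 and 0.418). With voom weights on the read pairs none of the 5 calls was kept (adjusted p = 0.137 and 0.291 for tetraspanin-8 at A1 and B1, and 0.170, 0.270 and 0.315 for P-selectin at A1, B1 and D).

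At A2, B2, C1 and C2 neither gene was called. The background was as low: 0% of contigs at A2, C1 and C2 and 0.0106% at B2 were called higher in fertile colonies with limma. At A2, C1 and C2 voom called 0, 0 and 1. An unadjusted limma p under 0.05 was found for 2260 of 37379 contigs at A2 and 1403 of 37751 at B2. At C1 it was found for 1478 of 38272, and at C2 for 2581 of 38585. By chance 5% would be expected, and the share was above that at A2 and C2 and below it at B2 and C1. At A2 tetraspanin-8 differed by 5.02 ± 1.21 and P-selectin by 5.39 ± 0.56 (SE, limma adjusted p = 0.635 and 0.138). Without fertile library 3, low in gonad contigs, both passed at A2, with differences of 6.34 and 5.91 (limma adjusted p = 0.0499 and 0.0228). At B2 the differences were 3.96 ± 1.28 for tetraspanin-8 and 4.49 ± 0.96 for P-selectin (SE, limma adjusted p = 1.00 and 0.722), and without infertile library 1 they were 5.003 and 5.29 (limma adjusted p = 0.461 and 0.202). Over all libraries left out in turn at B2, tetraspanin-8 ranged down to 2.65, without infertile library 2, and P-selectin down to 3.77, without infertile library 3, and neither passed in any of these fits.

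At C1 tetraspanin-8 differed by 1.83 (95% interval −1.57 to 5.23) and P-selectin by 2.85 (−0.70 to 6.40), and neither interval left out 0 (limma adjusted p = 0.920 for both). Without infertile library 1 they differed by 3.02 and 4.05 (limma adjusted p = 0.716 and 0.656), and without fertile library 3 P-selectin differed by 1.55 (limma adjusted p = 0.999). The lowest C1 difference of tetraspanin-8 was 0.82, without infertile library 2. Without both C1 libraries that stood apart, P-selectin differed by 2.75 ± 0.60 (SE, limma adjusted p = 0.448), and tetraspanin-8 was below the filter of 10 normalized counts. At C2 tetraspanin-8 differed by 0.69 (−0.83 to 2.21) and P-selectin by 2.53 (0.78 to 4.28; limma adjusted p = 0.826 and 0.735). Without infertile library 1, P-selectin passed at C2 with a difference of 3.33 (limma adjusted p = 0.0789), and tetraspanin-8 did not, at 1.11 (limma adjusted p = 0.558). The lowest C2 differences were 0.19 for tetraspanin-8, without infertile library 2, and 2.04 for P-selectin, without infertile library 3.

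**Figure D2:**
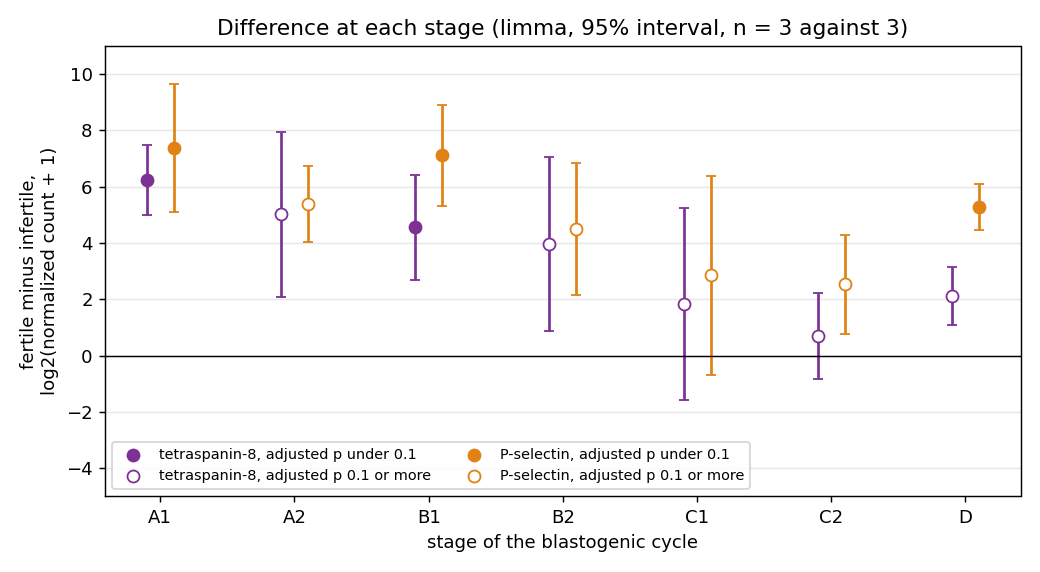
Difference between 3 fertile and 3 infertile libraries on the log2(normalized count + 1) scale at each stage, with limma's 95% interval; filled points passed a false discovery rate of 10%. Both genes are filled at A1 and B1 and P-selectin at D, and the intervals of tetraspanin-8 at C1 and C2 and of P-selectin at C1 include 0.

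Whether the difference changed over the cycle was tested in 1 fit of the 42 libraries, which counts libraries of the same genotype at several stages as independent. The F test over the 7 stages did not pass for tetraspanin-8 (F = 3.21, limma adjusted p = 1.00) or P-selectin (F = 3.50, limma adjusted p = 1.00), and 0.00777% of 38629 contigs passed. The unadjusted p-values were 0.0146 and 0.00945. Against the mean of the other stages, the tetraspanin-8 difference stood at 3.21 ± 1.20 for A1 and −3.26 ± 1.20 for C2 (SE, log2), and that of P-selectin at 2.77 ± 1.09 for A1 and −2.89 ± 1.09 for C2. Neither gene passed at any stage (limma adjusted p of 0.750 or more), and 0.0362% of contigs passed at C2 and none at the other stages. Without the 5 libraries that stood apart, tetraspanin-8 passed the F test (limma adjusted p = 0.0832) and P-selectin did not (limma adjusted p = 0.170). Those libraries were left out after seeing the data, for gonad contigs whose levels correlate with both genes, so that fit is not independent evidence.

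Levels of different stages were set side by side after the read pairs of all 42 libraries were scaled by 1 common set of size factors. In fertile colonies tetraspanin-8 had jointly scaled counts of 149 ± 29.8 at A1, 102 ± 88.5 at A2, 138 ± 70.6 at B1 and 118 ± 89.2 at B2 (SD, n = 3). It then had 24.3 ± 27.1 at C1, 20.1 ± 9.48 at C2 and 24.7 ± 1.51 at D. From high to low the order was A1, B1, B2, A2, D, C1 and C2, and the libraries of every pair of neighbours in that order overlapped. All libraries of A1 and B1 (57.3 or more) lay above all libraries of C1, C2 and D (54.7 or less). Those of A2 and B2 did not, with lowest values of 8.28 and 47.1. In infertile colonies the means ran from 0.96 at A2 to 12.5 at C2.

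In fertile colonies P-selectin had jointly scaled counts of 360 ± 138 at A1, 374 ± 225 at A2, 321 ± 159 at B1 and 267 ± 167 at B2 (SD, n = 3). It then had 180 ± 259 at C1, 68.0 ± 17.2 at C2 and 188 ± 15.4 at D. From high to low the order was A2, A1, B1, B2, D, C1 and C2, and again all neighbours overlapped. The D libraries, from 170 to 199, lay above the C2 libraries, from 52.2 to 86.3. In infertile colonies the means ran from 1.61 at B1 to 20.7 at C1. The F test over stages within fertile colonies did not pass for tetraspanin-8 (F = 2.96, limma adjusted p = 0.463) or P-selectin (F = 1.87, limma adjusted p = 1.00), against 1.66% of 38599 contigs that passed. Set against the mean of the other stages, neither gene passed at any single stage within fertile colonies (limma adjusted p of 0.746 or more), where the share of contigs that passed was 0.0648% for B2, 0.422% for C1, 0.254% for C2 and 1.67% for D. Nor did either pass within infertile colonies (limma adjusted p of 0.741 or more), where that share was 0.544% for A1, 0.109% for B2, 0.0155% for C1, 0.56% for C2, 2.86% for D and 2.94% for the F test. The F test within fertile colonies passed for tetraspanin-8 with a pseudocount of 5 (limma adjusted p = 0.0703) and without the 2 fertile libraries that stood apart (limma adjusted p = 0.0652), and under the same settings it did not pass for P-selectin (limma adjusted p = 0.496 and 0.211). Those 2 libraries were likewise left out after seeing the data.

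The relation of the genes to each other can be read within a library, where no scaling is needed; contig lengths were not used, so only changes of the ratio between stages are compared. P-selectin counts over tetraspanin-8 counts were 1.50, 3.41 and 2.49 in the fertile libraries of A1, 3.30, 3.11 and 19.3 at A2, and 2.33, 2.30 and 2.46 at B1. They were 1.95, 1.96 and 3.19 at B2. In the late stages they were 1.55, 15.0 and 8.75 at C1, 3.06, 2.93 and 5.40 at C2, and 7.57, 7.33 and 7.92 at D. The 3 libraries agreed closely at B1 and at D, and they spread widely at A2 and C1.

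The mean log2 ratio was 2.36 ± 0.93 in 9 late libraries (C1, C2 and D) and 1.64 ± 0.98 in 9 early libraries (A1, A2 and B1; SD). The difference of 0.71, a 1.64-fold higher ratio late in the cycle, did not pass an exact two-sided permutation test (p = 0.133). That test and its variants below count libraries of the same genotype at several stages as independent. B2, the middle of the cycle, was left out of both sides, and the difference was 0.42 with B2 counted as late (exact permutation p = 0.338) and 0.83 with B2 counted as early (exact permutation p = 0.0528). Leaving out 1 library at a time, it ranged from 0.58 to 1.02 and passed in 2 cases. It was 1.02 without fertile library 3 of A2 (exact permutation p = 0.0129) and 0.93 without fertile library 1 of C1 (exact permutation p = 0.0436). Without D it was 0.45 (exact permutation p = 0.414), so that the size of the difference rested in part on the 3 D libraries.

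**Figure D3:**
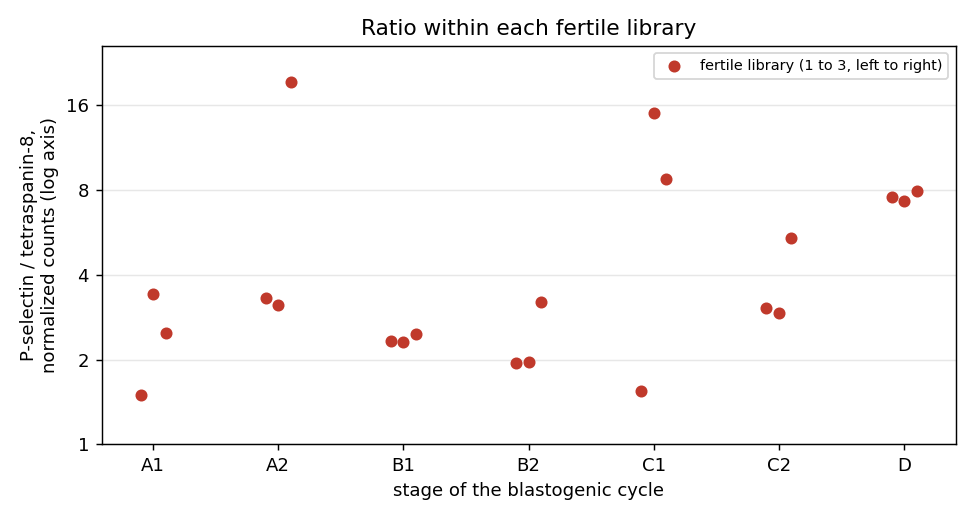
Ratio of P-selectin to tetraspanin-8 normalized counts (log axis) in each of the 21 fertile libraries by stage. The 3 libraries lie between 2.30 and 2.46 at B1 and between 7.33 and 7.92 at D, and library 3 of A2 has the highest ratio, 19.3.

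Over the cycle the sperm contigs of fertile colonies were high from A1 to B2 and low at C2 and D. The sum of the egg contigs was not low late, but 1 of the 3, tll-1, averaged 159 normalized counts at A1 and 84.9 at D in fertile colonies. Those tll-1 means were scaled separately within each stage, while the sums were scaled jointly. The summed sperm contigs averaged 10.8% of their A1 level at D, and the egg sum 132%. Tetraspanin-8 was at 16.5% of its A1 level at D and P-selectin at 52.3%. Across the 21 fertile libraries, the log2 level of tetraspanin-8 correlated with the sperm sum at Pearson's r = 0.83 (Spearman's rho = 0.82) and with the egg sum at r = 0.29 (rho = 0.12). For P-selectin r was 0.68 with the sperm sum (rho = 0.70) and 0.18 with the egg sum (rho = −0.02). Without the 3 D libraries the value for P-selectin and the sperm sum was r = 0.80 over 18 libraries (rho = 0.74). These libraries share stages, genotypes and scaling, and the values are descriptive. The testis-specific kinase tsk-2 was among the sperm contigs. By staining RNA in fertile colonies, the study located this kinase and both genes in early oocytes, though not only there. It located the egg contigs in follicle cells around maturing eggs, and P-selectin also in the siphons. The sums thus cannot tell testis from early oocytes, and a relation of either gene to early oocytes was not tested.

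Within B2, C1 and C2, the infertile library highest in both genes was the one numbered 1, which had raised sperm contigs at that stage. The number does not link these libraries between stages. Over the 21 infertile libraries r with the sperm sum was 0.55 for tetraspanin-8 (rho = 0.26) and 0.79 for P-selectin (rho = 0.68). These values include the infertile libraries that stood apart and were not computed without them. The share of gonad cells in the colonies was not measured, and its part in the differences between the groups was not tested.

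**Figure D4:**
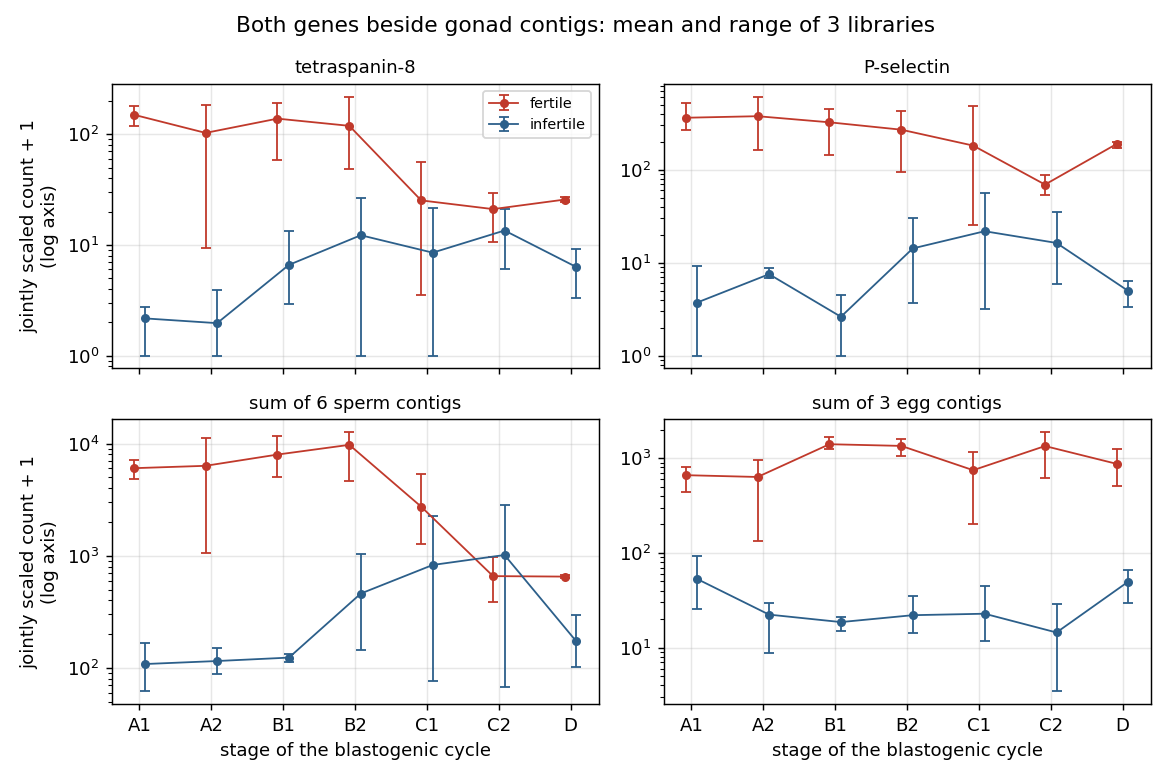
Jointly scaled count plus 1 (log axis) of tetraspanin-8, P-selectin, 6 summed sperm contigs and 3 summed egg contigs in fertile and infertile colonies by stage; points are means and bars the range of 3 libraries. At D in fertile colonies the sperm sum averaged 10.8% of its A1 level, tetraspanin-8 16.5%, P-selectin 52.3% and the egg sum 132%.

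Of 38610 contigs compared over the 21 fertile libraries, the 5 whose levels followed tetraspanin-8 most closely had Pearson's r between 0.954 and 0.963. They were Bot_c20066, Bot_c5674 and Bot_c5384, which have no classified homolog, Bot_rep_c37814, whose human homolog is dynein heavy chain 8 of the axoneme (the motor of cilia and sperm tails), and CAP3_round1_contig_551, with the homolog WD repeat-containing protein 49. P-selectin followed 3 contigs with the same dynein homolog, Bot_c10084, Bot_c30336 and Bot_c10158 (r between 0.943 and 0.966), together with Bot_c9806 and Bot_c5695 (r = 0.947 each). Whether the 3 dynein contigs are pieces of 1 transcript was not determined. Tetraspanin-8 and P-selectin had r = 0.82 with each other, at rank 294 of the contigs for tetraspanin-8 and rank 138 for P-selectin. By Spearman's rho, 1 of the 5 contigs named for tetraspanin-8 and 4 of the 5 for P-selectin were again among the first 5, and over all 42 libraries 1 and 0 were.

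Bot_c9806 and Bot_c5695 share with the P-selectin contig its best homolog in the ascidian Ciona, an uncharacterized protein, as do 4 further contigs among the annotations used. Whether these 7 contigs are pieces of 1 gene or separate genes was not determined, and reads may be shared between them. Their fertile libraries lay above all infertile libraries for 7 of 7 contigs at A1, A2 and B1, for 5 at B2, for 0 at C1, for 2 at C2 and for 6 at D, beside 7.75%, 6.93%, 8.04%, 4.89%, 4.39%, 7.21% and 10.9% of all contigs tested, in stage order. The P-selectin contig itself is 1 of the 7, and Bot_c9806 and Bot_c5695 were picked for their correlation with it. Names were available for 4967 of the 50106 contigs, from sheets sorted by the study's own p-values on these samples. The 7 contigs could thus be picked for differing, so their counts cannot be weighed against the shares of all contigs. They were looked up after the values of Bot_c9806 and Bot_c5695 were seen, and no test was made on them. The contig with the most reads, not set per length, was CAP3_round1_contig_2334 (human homolog P-selectin). It stood at 3019 ± 439 normalized counts in fertile colonies, against 123 ± 123 in infertile colonies at A1 (SD, n = 3 each), and at D 950 ± 105 in fertile and 201 ± 197 in infertile colonies.

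Other contigs with selectin or tetraspanin homologs mostly did not pass the test. The lists were taken from annotation sheets sorted by the study's own p-values on these samples, so their counts are not independent evidence. Of 7 other tetraspanin contigs, all tested at every stage, none passed limma's test at any stage, and the median difference at A1 was −0.16, beside 0.01 over all contigs tested. CAP3_round1_contig_7333, a homolog of CD9, the tetraspanin of the mammalian egg surface, stood at 1461 normalized counts in fertile colonies, against 2611 in infertile colonies at A1, and all fertile libraries were below all infertile libraries there and at A2, B1, B2 and D. Its limma adjusted p was 0.387 or more. How many of all contigs had such a reverse gap was not counted, so that gap is not set against a background share. CAP3_round1_contig_7497 (human homolog tetraspanin-8) stood at 1279 normalized counts in fertile colonies, against 373 in infertile colonies at A1, with overlapping libraries and a log2 difference of −0.16, and a single library carried each mean. At C2 its libraries did not overlap, with 1874 ± 508 in fertile and 50.5 ± 41.2 in infertile colonies (SD, n = 3 each), a difference of 5.73 that did not pass (limma adjusted p = 0.524). Bot_rep_c54674, with the same human homolog, lay apart the other way at C2. It had 4.25 ± 4.03 in fertile and 346 ± 359 in infertile colonies, and its difference of −5.81 did not pass (limma adjusted p = 0.438). Of the 7 other tetraspanin contigs, 2 had all fertile libraries above all infertile ones at C2 and 2 had them all below. Over all contigs tested at C2, 7.21% had the fertile libraries above.

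Of 11 other selectin contigs, 10 could be tested, and 2 passed at A1, both higher in fertile colonies, against a background of 1.27%. They were Bot_c5695 (E-selectin homolog), with a difference of 4.58 (limma adjusted p = 0.0153), and CAP3_round1_contig_2334, with 5.28 (limma adjusted p = 0.0979), both of them among the 7 contigs that share the Ciona homolog. The median over the 10 was 0.18 at A1, and no other selectin contig passed at any stage. CAP3_round1_contig_9998 (P-selectin homologs in human and Ciona) stood at 1983 normalized counts in fertile colonies, against 5626 in infertile colonies at A1. Its log2 difference was negative at all 7 stages, between −0.72 and −2.14, and did not pass.

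Integrins and ADAM proteases are partners of tetraspanins in vertebrate membranes, and ADAM proteins also act in sperm maturation and adhesion in mammals. Of 7 such contigs, 6 passed at A1 and the same 6 at B1, all higher in fertile colonies, beside 1.27% of all contigs at A1 and 1.29% at B1, with a median difference over the 7 of 6.49 at both stages, beside 0.01 and 0.00 over all contigs. All 6 have human homologs of ADAM9, ADAM12 or ADAM19, and all 6 have ADAM12 as their Ciona homolog, and whether they are pieces of fewer genes was not determined. At A1 and B1 Bot_rep_c37563 was at 0 in all infertile libraries, so that its fitted differences, 1 of them the A1 median, depend on the pseudocount. CAP3_round1_contig_6892 stood at 2139 ± 955 normalized counts in fertile colonies, against 26.2 ± 25.4 in infertile colonies at A1 (SD, n = 3 each), a difference of 6.67 (limma adjusted p = 0.0214). At C2 it had 106 ± 84.8 in fertile and 358 ± 536 in infertile colonies, and the median over the list was −1.05. The infertile SD exceeded the mean in each ADAM contig there, and the list was not fitted without the infertile library that stood apart. Of the 7 contigs, 0 passed at C2 and 0 had all fertile libraries below all infertile ones. At D only 3 of the 7 contigs reached the filter. The integrin contig, Bot_c11564 (integrin alpha-6), stood at 18.5 ± 9.44 normalized counts in fertile colonies, against 19.7 ± 6.20 in infertile colonies at A1 and passed at no stage.

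**Figure D5:**
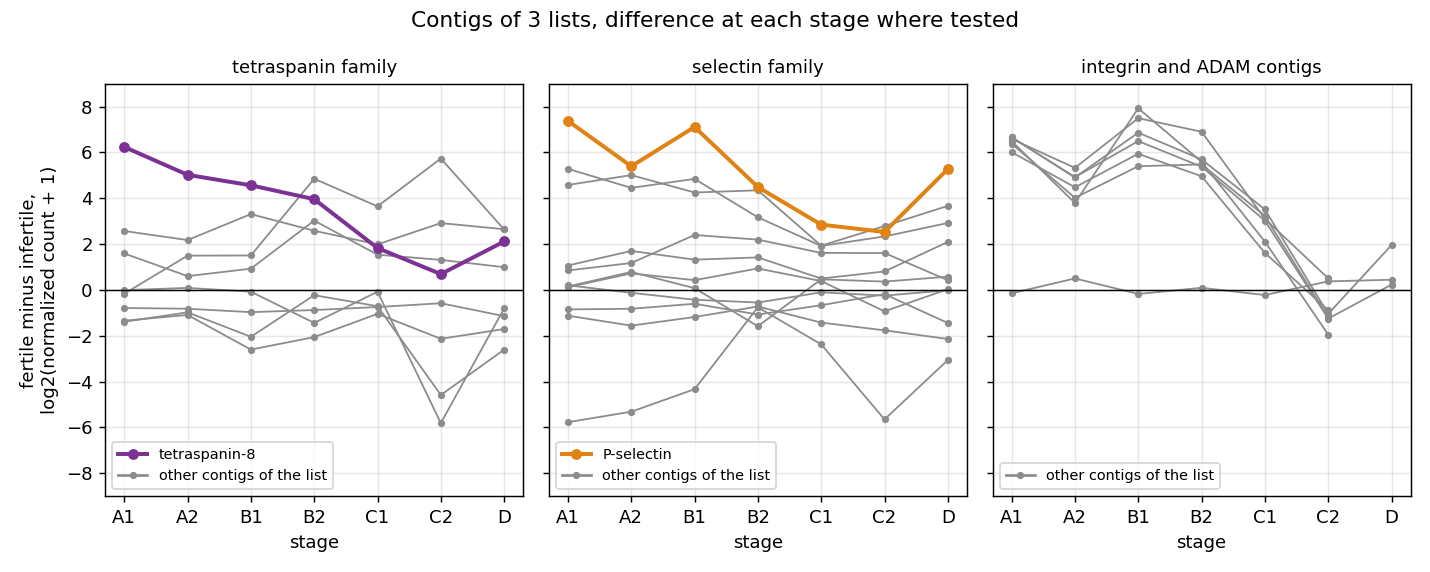
Difference between fertile and infertile colonies on the log2(normalized count + 1) scale by stage for the contigs of the tetraspanin, selectin and integrin or ADAM lists, each line a contig and shown where tested. Tetraspanin-8 and P-selectin lie above the other contigs of their lists at A1, A2 and B1, and the 6 ADAM contigs lie between 6.01 and 6.67 at A1.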

How the data were processed

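The authors trimmed the reads, mapped the pairs with Bowtie 0.12.7 to contigs of an expressed-sequence assembly, took the reads of each contig and scaled them within each stage with DESeq 1.10.1. The deposited signal is the mean of these normalized counts over the 3 libraries of a group. The tables also hold the authors' fold changes and p-values, which were not used.

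Library values were recovered by writing each mean as whole numbers of read pairs, each pair having entered as 2 reads, times 1 unit per library. This succeeded for 49939 to 50050 of the 50106 contigs in each column. The others, with means of 10909 or more, held 26.6% to 68.0% of the summed means and were left out. On simulated means 20000 of 20000 were recovered, and 1 of 3000 decoys was solved. No genotype was assigned, and p-values measure only the spread between these libraries, some of them pools.

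Tests used limma 3.58.1 in R 4.3.3 with a pseudocount of 1, a filter at a mean of 10 and Benjamini-Hochberg adjustment at 10%. For the A1 comparison, simulated with 38432 contigs, 75 of 100 contigs with an 8-fold change and 100 of 100 with a 30-fold change were called. The simulation gave all contigs the same spread. It changed only contigs with higher counts than both genes had in infertile colonies at A1, so these rates need not hold for them. The ratio was compared by an exact permutation test. Tests of 3 libraries against 3 by permutation cannot go below a two-sided p of 0.1. Counting intervals are 95% exact binomial intervals on pooled pairs and, like limits for 0 counts, cover counting error only. Alternatives covered pseudocounts, filters, scaling, an intensity trend, voom, a 5% threshold and leaving out each library; leaving out several libraries or D was chosen after seeing the data. Genes and lists were chosen with earlier results of these data known. The contigs named are both genes, the list contigs and the 5 best correlated with each gene; those sharing a Ciona homolog were added after their values were seen. Names come from parts of the study's homolog sheets.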

Additional observations from a re-analysis of the deposited data

Results flagged for a closer look

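The log2 ratio of P-selectin to tetraspanin-8 in fertile library 3 of A2 was 4.09 (pseudocount 1), and it stood apart from the other 8 early libraries, which lay between 0.58 and 1.76. By the gap test used, chance marks about 1 in 20 groups. The library had 3 read pairs of tetraspanin-8 and was also the lowest fertile library of its stage in gonad contigs. No explanation was tested.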

How the results depend on the processing

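No alternative turned the sign of a difference within a stage, but filters, the trend and the threshold cannot change it, nor can leaving out a library where the groups do not overlap. Calls were lost with voom for tetraspanin-8 at A1 (6.42) and B1 (4.79) and for P-selectin at A1 (7.69), B1 (7.26) and D (5.49), and at a 5% threshold for tetraspanin-8 at B1 (4.56). Contigs called moved from 495 to 209 with voom at A1, from 0 to 9 with a pseudocount of 0.5 at A2, and from 506 to 128 with voom at B1. At B2, 4 contigs became 9 with a pseudocount of 5 or a filter at 50, 10 with scaling to total pairs, 8 with an intensity trend and 0 at 5%. At C2, 0 became 6 with a pseudocount of 5 and 1 with a filter at 50, a trend or voom. At D, 16 became 36 with a pseudocount of 5, 30 with no filter, 2 with voom and 6 at 5%.

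Leaving out each library in turn gave 244 to 703 contigs at A1, 0 to 299 at A2, 213 to 973 at B1, 0 to 76 at B2, 0 to 4 at C1, 0 to 260 at C2 and 0 to 676 at D. The differences ranged from 4.19 to 6.34 at A2 and 4.12 to 5.27 at B1 for tetraspanin-8. Those of P-selectin ranged from 6.84 to 8.44 at A1, 4.94 to 5.91 at A2, 2.04 to 3.33 at C2 and 5.01 to 5.48 at D. The late minus early ratio ranged from 0.58 to 1.02, it was 0.42 with B2 as late and 0.83 with B2 as early, and it was 0.92 without both fertile libraries that stood apart.

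Against the mean of other stages, signs turned over when single libraries were left out for the difference at B2 (tetraspanin-8 −0.76 to 1.59, P-selectin −1.31 to 0.20) and for the fertile level of tetraspanin-8 at A2 (−0.58 to 1.58) and of P-selectin at B2 (−0.13 to 0.97) and D (−0.10 to 0.26). The P-selectin difference at D was −0.019 without the 5 libraries that stood apart, and the F of tetraspanin-8 was 6.09. Its fertile F was 4.83 with a pseudocount of 5 and 5.001 without the 2 fertile libraries. The causes were not tested.

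No paired analysis was possible because the deposited columns carry no replicate number, and the groups share no numbered genotype. Tetraspanin-8 has no C1 value without fertile library 3, where it fell under the filter. Few read pairs in infertile colonies limit every ratio.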
